A study of Mus musculus with 9 samples.

Results

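Cells make cholesterol and fatty acids from acetyl-CoA through enzyme chains that are controlled together, and 36 genes of these chains were followed here in mouse invariant natural killer T (iNKT) cells with and without Utx. The members were 17 enzymes of sterol synthesis, 5 genes of the SREBP control circuit, 12 genes of fatty acid synthesis, elongation and desaturation, and 2 sterol exporters. They were taken by gene symbol from the probe sets that the array annotation assigns to 1 gene, with the probe set of highest mean used for each gene. All 36 were found among the 18193 genes on the array, and all 36 were among the 14524 genes tested, which had a mean level above 4.54 (log2).

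RNA came from iNKT cells of the thymus, which are T cells with a nearly invariant receptor for lipids shown by CD1d. The groups were 4 arrays of Utx knockout mice (KO1 to KO4) and 5 of Utx wildtype mice (WT1 to WT5), labelled as biological replicates, with animals of 8 to 12 weeks. Utx, the product of the X-linked gene Kdm6a, is a demethylase of histone H3. Batch 1 held KO1 and WT1, batch 2 held KO2, KO3, KO4 and WT2, and batch 3 held WT3, WT4 and WT5, as the titles give them. The driver of the deletion, the part of the gene deleted and the strain are not given in the sources used here. None of the 4 Kdm6a probe sets read lower on all knockout than on all wildtype arrays, and the brightest read 9.62 to 10.07 on the knockout and 9.79 to 10.15 on the wildtype arrays (log2, difference -0.01, SE 0.19, limma adjusted p = 0.974). On 1 of the others every knockout array read above every wildtype array, 6.81 to 7.25 against 6.30 to 6.73. Another read 8.64 to 9.17 on knockout and 9.02 to 9.65 on wildtype arrays, and there KO1 alone lay within the wildtype range. The last overlapped, at 8.06 to 8.86 and 8.39 to 9.21. Since the deleted part is not known here, a probe set outside it would check nothing, and the direction of each difference below rests on the labels.

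Mevalonate pathway enzymes join acetyl units into farnesyl diphosphate and squalene, and a later chain closes the sterol rings and turns lanosterol into cholesterol. When membrane sterol is low, Scap escorts the SREBP transcription factors from the endoplasmic reticulum to be cleaved, with SREBP-2 acting mainly on sterol genes and SREBP-1 mainly on fatty acid genes, while Insig proteins hold the complex back. When oxysterols accumulate, LXR receptors raise the exporters Abca1 and Abcg1. T cells that divide need both lipids for new membranes.

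SREBP proteins bind sterol regulatory elements (SREs), often together with NF-Y at CCAAT boxes and Sp1 at GC boxes. The 150 bases before the start site are shown for Hmgcs1, whose promoter was the one among the members with the letters TCACNCCAC, and for Pmvk, Cyp51, Hsd17b7 and Srebf2, the sterol and SREBP genes with an entry that were higher in the knockout below; those 4 were chosen after their values were seen. Sequences are from RefSeq (GRCm38.p6), 5′ to 3′ on the gene's strand, with the SRE match TCACCCCAC in capitals (in Hmgcs1 alone) and every CCAAT box in capitals, which reads ATTGG where it lies on the opposite strand. The windows are chr13:119690201-119690350 (plus strand), chr3:89454391-89454540 (plus), chr5:4104698-4104847 (minus), chr1:169969206-169969355 (minus) and chr15:82147119-82147268 (plus).
Hmgcs1: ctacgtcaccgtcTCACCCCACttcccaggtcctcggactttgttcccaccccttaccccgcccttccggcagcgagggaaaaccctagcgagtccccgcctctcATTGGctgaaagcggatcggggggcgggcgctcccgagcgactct
Pmvk: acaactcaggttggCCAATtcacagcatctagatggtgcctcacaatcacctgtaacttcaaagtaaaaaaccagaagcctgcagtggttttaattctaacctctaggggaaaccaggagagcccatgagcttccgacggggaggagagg
Cyp51: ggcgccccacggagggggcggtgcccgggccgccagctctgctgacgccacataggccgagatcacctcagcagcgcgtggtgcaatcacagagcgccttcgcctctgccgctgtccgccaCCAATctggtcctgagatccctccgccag
Hsd17b7: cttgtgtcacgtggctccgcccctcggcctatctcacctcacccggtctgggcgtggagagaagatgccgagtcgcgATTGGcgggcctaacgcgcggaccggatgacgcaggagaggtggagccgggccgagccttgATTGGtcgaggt
Srebf2: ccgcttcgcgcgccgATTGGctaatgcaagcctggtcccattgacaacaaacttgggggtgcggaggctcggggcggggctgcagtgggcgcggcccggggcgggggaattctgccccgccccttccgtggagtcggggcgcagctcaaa
Promoter windows of 250 bases before to 50 after a start were found for 29 of the 36 members and were searched on both strands for TCACNCCAC, CCAAT and GGGCGG, none of which contains another. CCAAT was present in 14 of 14 sterol synthesis genes, 4 of 5 SREBP control genes and 5 of 9 fatty acid genes, and in 42.0% of tested genes with an entry and 37.4% of all promoters. The SRE letters were in 1 of 14 sterol synthesis promoters, 0 of 5 SREBP control promoters and 0 of 9 fatty acid promoters, and in 1.24% of all promoters. GGGCGG was in 13 of 14 sterol synthesis, 5 of 5 SREBP control and 5 of 9 fatty acid promoters, against 62.9% of tested genes and 35.7% of all promoters. The Hmgcs1 promoter thus differs from the other 4 shown in carrying an SRE match, 137 bases before the start. Each of the 5 promoters has at least 1 CCAAT box within the stretch printed, and Hsd17b7 has 2. The entry of Abca1 held GGGCGG and neither of the others. A match is a run of letters and not a measured binding site, and no match says only that the letters are not in this window.

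The knockout arrays read higher for several sterol synthesis enzymes and for 3 fatty acid desaturases, with log2 differences of 0.63 to 1.66 for the called sterol enzymes and near 2 for the desaturases. Of the 36 members, 11 were higher and 1 lower in the knockout than in the wildtype arrays at a limma adjusted p under 0.05, with batch as a fixed factor. Over all 14524 genes tested, the share called was 11.3% in either direction, 7.88% higher and 3.37% lower in the knockout. At an unadjusted p under 0.05 the shares of all genes were 30.8% in either direction, 20% higher and 10.7% lower, and 59.2% of all genes had a positive difference. The median log2 difference was 0.41 over the 36 members and 0.11 over all genes tested (-0.01 in batch 1 and 0.19 in batch 2). The 11 higher members include Acaca, whose 2 probe sets had opposite signs. After another quantile normalization, 8 members were higher and 3 lower. Over all genes, 1144 were higher and 490 lower, and 1043 and 745 with that normalization. These are bulk arrays, so a change in the share of a cell type and a change in RNA per cell cannot be told apart.

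**Figure D1:**
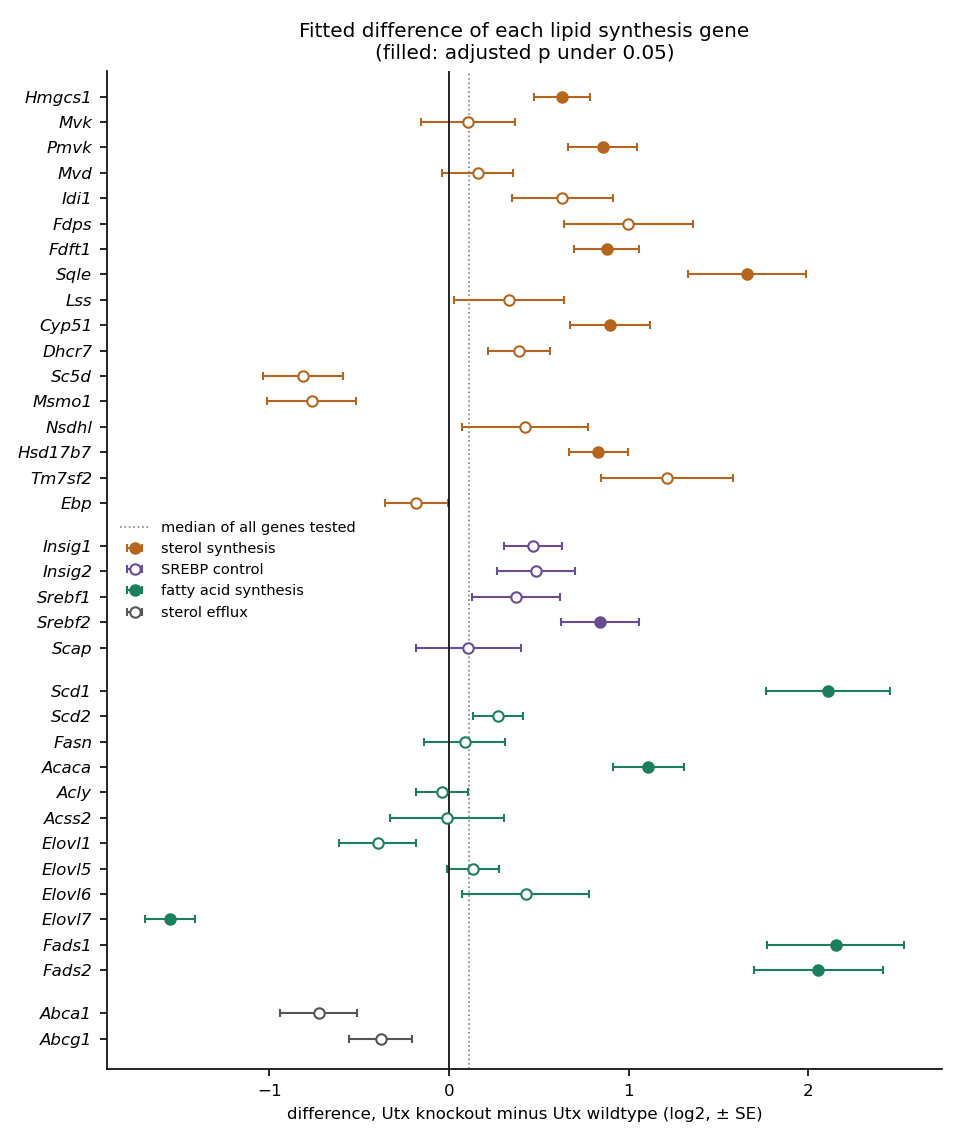
Fitted log2 difference, Utx knockout minus Utx wildtype, of the 36 members by branch, with bars of ± SE and filled points for an adjusted p under 0.05; the dotted line is the median of all genes tested (0.11). The desaturases Scd1, Fads1 and Fads2 lie farthest right and the elongase Elovl7 farthest left.

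In sterol synthesis, the branch with the most members, 6 of 17 genes passed the test upward and 0 downward. At an unadjusted limma p under 0.05, 8 were higher and 2 lower. The median log2 difference was 0.63, being 0.46 in batch 1 and 0.51 in batch 2. In 9 of the 17 genes every knockout array read above every wildtype array, and in 2 every one read below, where 22.2% and 12.7% of all genes tested did so. The difference was positive for 14 of the 17 genes, and for 12 after another quantile normalization, in which Mvk and Mvd turned.

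The squalene epoxidase gene Sqle, whose product makes the first oxygenated sterol precursor, read 8.49, 7.81, 8.24 and 8.89 on KO1 to KO4, against 6.73, 6.73, 6.26, 7.02 and 6.94 on WT1 to WT5 (log2). The lowest knockout array, KO2, lay above the highest wildtype array, WT4. The difference was 1.66 (SE 0.33), a 3.16-fold higher level in the knockout (limma adjusted p = 0.018). It was 1.77 within batch 1 and 1.59 within batch 2.

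Hmgcs1 encodes an early synthase of the pathway and read 12.22, 11.97, 12.04 and 12.17 on KO1 to KO4, against 11.41, 11.55, 11.49, 11.36 and 11.55 on WT1 to WT5. The groups did not overlap, and the SD between arrays was 0.12 in the knockout and 0.08 in the wildtype. Its difference was 0.63 (SE 0.16, adjusted p = 0.0385). The other 4 probe sets gave log2 differences of -0.08 to 1.37, 3 of them positive.

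Pmvk, phosphomevalonate kinase, read 8.97, 8.81, 9.19 and 9.19 on KO1 to KO4, against 8.29, 8.09, 8.02, 8.41 and 8.16 on WT1 to WT5. All 4 knockout arrays were above all 5 wildtype arrays, with a difference of 0.86 (SE 0.19, adjusted p = 0.0285). Fdft1, squalene synthase, read 9.10, 9.18, 9.03 and 8.92 on KO1 to KO4, against 8.23, 8.16, 8.09, 8.51 and 8.09 on WT1 to WT5. Its knockout arrays lay close together and above every wildtype array, of which WT4 was the highest. The difference of Fdft1 was 0.88 (SE 0.18, adjusted p = 0.0211), and its other 2 tested probe sets gave 0.08 and 1.92.

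The early steps, from Hmgcs1 to Sqle, held 4 of the 6 higher sterol genes among 8 members, all 8 with a positive difference and a median of 0.74. The other early genes did not pass the test. Fdps, farnesyl diphosphate synthase, had a log2 difference of 1.0 (SE 0.36, adjusted p = 0.104), with KO3 within the wildtype range; without KO3 it was 1.20 (adjusted p = 0.0450). Idi1, isopentenyl diphosphate isomerase, had 0.63 (SE 0.28, adjusted p = 0.167) on its brightest probe set and 1.66 (SE 0.32, adjusted p over probe sets 0.0198) on the other. On the brightest the difference of Idi1 was 1.45 in batch 1 and 0.08 in batch 2, and it passed without WT2 (1.45, adjusted p = 0.0204) and as the mean of its probe sets (1.14, adjusted p = 0.0195). Mvk and Mvd, the mevalonate kinase and decarboxylase, had 0.11 (95% interval -0.49 to 0.70) and 0.16 (95% interval -0.29 to 0.61).

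Late sterol synthesis, from lanosterol to cholesterol, was mixed: 2 of 9 genes were higher and 0 lower by the test, 3 higher and 2 lower at an unadjusted limma p under 0.05, with a median difference of 0.39. Cyp51, the lanosterol demethylase, read 9.40, 9.06, 9.06 and 9.41 on KO1 to KO4, against 8.24, 8.45, 7.99, 8.53 and 8.52 on WT1 to WT5. The knockout arrays formed a pair near 9.4 and a pair near 9.06, all above the wildtype arrays. The difference was 0.90 (SE 0.22, adjusted p = 0.0375), while its other 2 probe sets gave 0.01 and 0.48.

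Hsd17b7, a ketoreductase of the demethylation steps, read 8.07, 8.18, 8.29 and 7.99 on KO1 to KO4, against 7.40, 7.21, 7.38, 7.38 and 7.19 on WT1 to WT5. The groups were separate, the difference being 0.83 (SE 0.16, adjusted p = 0.0178). This probe set is of the kind that can bind related transcripts, and the other tested probe set gave a difference of 0.06 (SE 0.29), so which of them follows Hsd17b7 is uncertain. The brightest probe sets of Acly, Elovl1 and Elovl5, used below, are of the same kind.

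Among the other late genes, Tm7sf2, a sterol reductase, had a difference of 1.21 (SE 0.37, adjusted p = 0.0681), which was 0.43 in batch 1 and 1.74 in batch 2, and it passed without KO1, KO2 or WT1 (adjusted p 0.0326 to 0.0418). Sc5d, the lathosterol oxidase, and Msmo1, the sterol methyl oxidase, had differences of -0.82 (SE 0.22, adjusted p = 0.0506) and -0.77 (SE 0.25, adjusted p = 0.0784). Every knockout array of both genes read below every wildtype array, in the direction opposite to Sqle, although the second Msmo1 probe set gave 0.25 and the other Sc5d probe sets gave 0.49 and -0.25. With the mean of all probe sets the differences were -0.19 for Sc5d and -0.26 for Msmo1. Msmo1 was -0.17 in batch 1 and -1.16 in batch 2, and it passed without KO1 or WT1 (adjusted p = 0.0272). Sc5d passed the test after another quantile normalization (-0.82 becoming -1.07, adjusted p = 0.0243). Dhcr7, Lss and Nsdhl had differences of 0.39, 0.33 and 0.42, and Ebp -0.18, with adjusted p of 0.167 to 0.508.

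**Figure D2:**
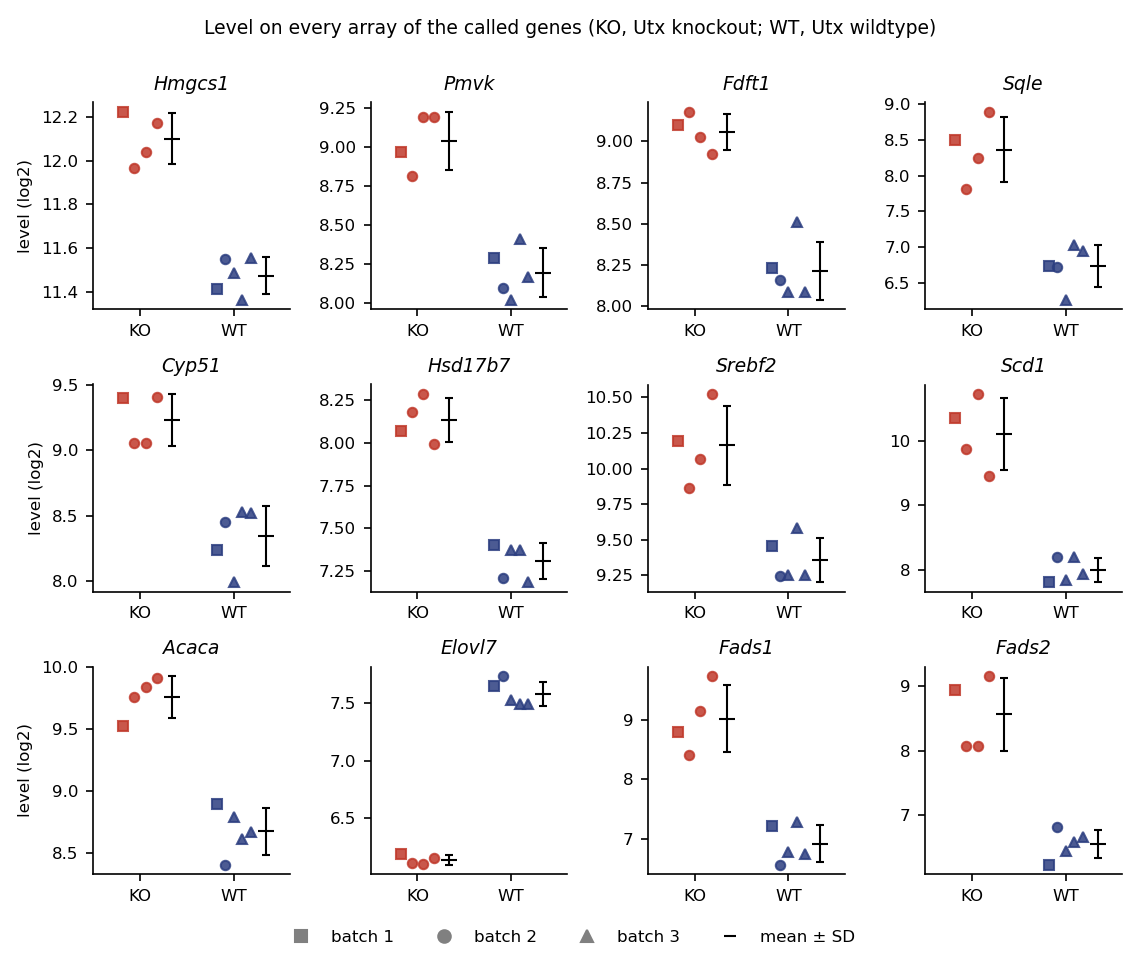
Level (log2) on each array of the 12 members past the test, Utx knockout (KO) left and Utx wildtype (WT) right in each panel, with symbols for the 3 batches and the mean ± SD beside the points. In all 12 panels the groups do not overlap, and Elovl7 is the one panel with the knockout arrays below. These genes were picked by the test on the same arrays, so the separation is no further support. Of all genes tested, 22.2% had every knockout array above every wildtype array and 12.7% had every one below.

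Calls in the sterol branch, made on the brightest probe set of each gene, depended on single arrays. Without KO4, WT2 or WT5, 3, 1 and 3 sterol genes passed in place of 6; without WT2 the difference rests on the single pair of batch 1. Hmgcs1 lost its call without any array other than KO2 (adjusted p 0.0571 to 0.121), Cyp51 without any but KO2 and WT3 (0.0574 to 0.117), Pmvk without KO3, KO4, WT2 or WT5 (0.0528 to 0.300), Fdft1 and Sqle without KO1, WT1 or WT2 (0.0514 to 0.152) and Hsd17b7 without WT2 (0.213). None of these 6 changed direction in any of the 9 fits. Leaving out WT3, WT4 or WT5 cannot change a difference, however, and leaving out KO1 or WT1 gives the same one. After another quantile normalization Fdft1 and Cyp51 did not pass (adjusted p 0.104 and 0.125), and with the mean of all probe sets Cyp51 and Hsd17b7 did not (0.259 and 0.282). With array weights, or without the 3 wildtype arrays of batch 3, 0 sterol genes passed limma, while 9 and 10 had an unadjusted p under 0.05.

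In the SREBP control circuit 1 of 5 genes was higher in the knockout and 0 were lower. At an unadjusted limma p under 0.05, 2 were higher and 0 lower. Among all genes tested, 7.88% were called higher, and 20% were higher at an unadjusted p under 0.05. Of these tested genes, 59.2% had a positive difference and 22.2% had every knockout array above every wildtype array. All 5 differences were positive, with a median of 0.47, but Scap turned after another quantile normalization (-0.18), and 3 of 5 were positive without WT2. Srebf2, which encodes SREBP-2, read 10.19, 9.87, 10.07 and 10.53 on KO1 to KO4, against 9.46, 9.25, 9.25, 9.58 and 9.25 on WT1 to WT5. KO2 was the lowest knockout array and WT4 the highest wildtype array, and the groups did not overlap. The difference was 0.84 (SE 0.22, 1.79-fold, adjusted p = 0.0438), and the second probe set gave 0.93 (SE 0.17, adjusted p over probe sets 0.0176). The call of Srebf2 was lost without any array other than KO2 (adjusted p 0.0524 to 0.344), after another quantile normalization (0.0715), with array weights (0.118) and without the wildtype arrays of batch 3 (0.118).

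Insig1 and Insig2 encode the proteins that retain Scap, and Insig1 is itself a known SREBP target. Insig1 read 11.25, 10.99, 11.17 and 11.05 on KO1 to KO4, against 10.54, 10.76, 10.60, 10.56 and 10.76 on WT1 to WT5, so that every knockout array was above every wildtype array by a small step. Its difference of 0.47 (SE 0.16) did not pass (adjusted p = 0.0971). Insig2 read 9.34, 9.21, 9.80 and 9.32 on KO1 to KO4, against 9.13, 8.78, 8.77, 9.03 and 9.07 on WT1 to WT5. KO3 was the highest and the groups were separate, with a difference of 0.49 (SE 0.22, adjusted p = 0.171); its other probe sets gave 1.0 and 1.06.

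Srebf1, which encodes both forms of SREBP-1, read 9.16, 9.28, 9.33 and 9.76 on KO1 to KO4, against 9.30, 8.74, 9.02, 9.24 and 8.83 on WT1 to WT5. The groups overlapped, WT1 and WT4 lying among the knockout arrays. The difference was 0.37 (95% interval -0.19 to 0.93, adjusted p = 0.328), but -0.14 in batch 1 and 0.72 in batch 2. Scap read 9.29, 8.87, 9.61 and 9.84 on KO1 to KO4, against 9.48, 9.13, 9.11, 9.59 and 9.23 on WT1 to WT5. Its lowest value was that of KO2 and its highest that of KO4, and the difference was 0.11 (95% interval -0.56 to 0.77, adjusted p = 0.824).

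**Figure D3:**
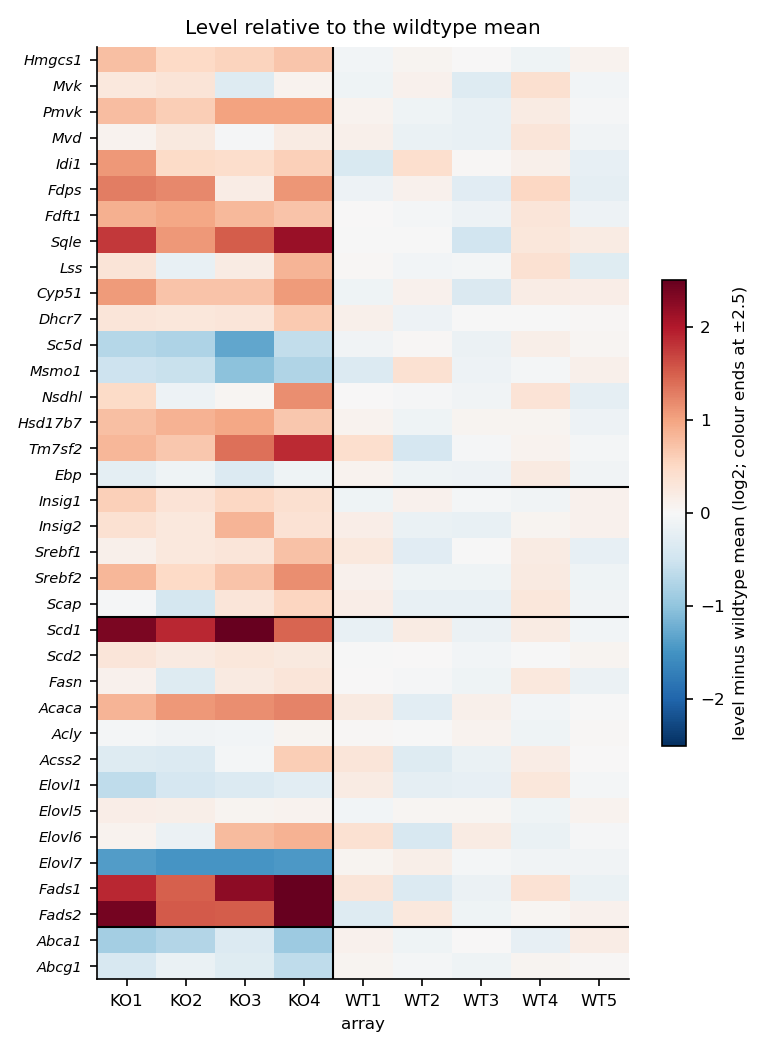
Level of each member on each array minus the mean of the 5 wildtype arrays of that member (log2, red above and blue below, colours ending at ±2.5), with knockout arrays left and lines between the branches. The rows of Sqle, Scd1, Fads1 and Fads2 are red on all 4 knockout arrays, and the Elovl7 row is blue on all 4.

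In fatty acid synthesis 4 of 12 genes were higher and 1 lower in the knockout on their brightest probe sets, the 4 being 3 desaturases and Acaca, whose second probe set was lower. In all, 3 of the 4 members that introduce double bonds rose, by log2 differences of 2.06 to 2.15, while Fasn, Acly and Acss2, which build or supply the chain, had differences within 0.09 of 0 on their brightest probe sets. The branch median was 0.20 (0.17 in batch 1 and 0.32 in batch 2). Every knockout array was above every wildtype array in 5 of the 12 genes and below in 2, where 22.2% and 12.7% of all genes tested did so. The 5 called genes were also those with an unadjusted limma p under 0.05.

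Scd1, the stearoyl-CoA desaturase that makes monounsaturated fatty acids, read 10.36, 9.87, 10.73 and 9.45 on KO1 to KO4, against 7.80, 8.20, 7.84, 8.20 and 7.93 on WT1 to WT5. The knockout arrays were spread over more than 1 log2 unit, yet the lowest, KO4, was above all wildtype arrays. The level was 4.32-fold higher in the knockout (difference 2.11, SE 0.35, adjusted p = 0.00988).

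Fads1 and Fads2 encode the desaturases that make long polyunsaturated fatty acids. Fads1 read 8.79, 8.40, 9.15 and 9.73 on KO1 to KO4, against 7.21, 6.56, 6.77, 7.28 and 6.74 on WT1 to WT5. Fads2 read 8.95, 8.08, 8.07 and 9.16 on KO1 to KO4, against 6.23, 6.82, 6.45, 6.59 and 6.66 on WT1 to WT5. In both genes KO4 was the highest array and the lowest knockout array lay over 1 log2 unit above the highest wildtype array. Fads1 was 4.45-fold higher (difference 2.15, SE 0.38, adjusted p = 0.0126) and Fads2 4.16-fold higher (difference 2.06, SE 0.36, adjusted p = 0.0119). The other probe sets were also positive, 1.09 for Fads1 and 1.02 and 1.27 for Fads2. The Fads genes, Scd1, Scd2 and the sterol gene Tm7sf2 lie on chromosome 19, and of these Scd2 and Tm7sf2 did not pass the test. Whether their position matters was not tested.

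Scd2, the second stearoyl-CoA desaturase here, read 11.79, 11.72, 11.77 and 11.74 on KO1 to KO4, against 11.48, 11.50, 11.42, 11.47 and 11.55 on WT1 to WT5. The groups were narrow and did not overlap, but the difference was small at 0.27 (SE 0.14, 95% interval -0.05 to 0.59, adjusted p = 0.221). Its other 2 probe sets gave 0.39 and 0.92.

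Fasn, the synthase that assembles palmitate, read 9.53, 9.10, 9.64 and 9.72 on KO1 to KO4, against 9.44, 9.41, 9.32, 9.70 and 9.27 on WT1 to WT5. The groups overlapped across almost their whole range. The difference was 0.09, with a 95% interval of -0.43 to 0.60, which leaves out a change as large as those of the 3 desaturases. Acly and Acss2, which supply acetyl-CoA, had -0.04 (95% interval -0.37 to 0.30) and -0.01 (95% interval -0.74 to 0.71). The other 3 tested probe sets of Acly gave -0.83 to -0.08, and the lowest of these passed (SE 0.20, adjusted p over probe sets 0.0388), with 7.13 to 7.6 on knockout and 8.10 to 8.43 on wildtype arrays.

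Acaca, the acetyl-CoA carboxylase that commits carbon to fatty acids, read 9.53, 9.76, 9.84 and 9.91 on KO1 to KO4, against 8.90, 8.41, 8.80, 8.61 and 8.67 on WT1 to WT5 on its brightest probe set. The groups were separate, with a difference of 1.11 (SE 0.20, adjusted p = 0.0131). The second probe set went the other way: 5.86, 5.78, 5.82 and 5.46 on KO1 to KO4, against 6.66, 7.22, 7.05, 6.75 and 6.83 on WT1 to WT5, a difference of -1.24 (SE 0.22, adjusted p over probe sets 0.0153). The mean of both gave -0.06, so no direction for Acaca as a whole is given.

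Among the 4 elongases, 0 were higher and 1 was lower, the same at an unadjusted limma p under 0.05. Elovl7, an elongase of long saturated acyl chains, read 6.19, 6.11, 6.10 and 6.16 on KO1 to KO4, against 7.65, 7.74, 7.53, 7.49 and 7.50 on WT1 to WT5. The groups were far apart, with an SD between arrays of 0.04 in the knockout and 0.11 in the wildtype. The level was 2.94-fold lower in the knockout (difference -1.56, SE 0.14, adjusted p = 0.0024), and the other 4 tested probe sets gave -1.47 to -1.10. Elovl1, Elovl5 and Elovl6 had differences of -0.40, 0.13 and 0.43 (adjusted p 0.243 to 0.560), and Elovl6 was -0.28 in batch 1 and 0.90 in batch 2.

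Scd1, Fads2 and Elovl7 passed the test whichever of the 9 arrays was left out. Without WT2, Acaca and Fads1 no longer passed (0.63, adjusted p = 0.205, and 1.58, adjusted p = 0.166), which left 3 fatty acid genes called. Without the 3 wildtype arrays of batch 3, Elovl7 alone passed, and Scd1, Fads1, Fads2 and Acaca had adjusted p of 0.0504 to 0.0643.

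**Figure D4:**
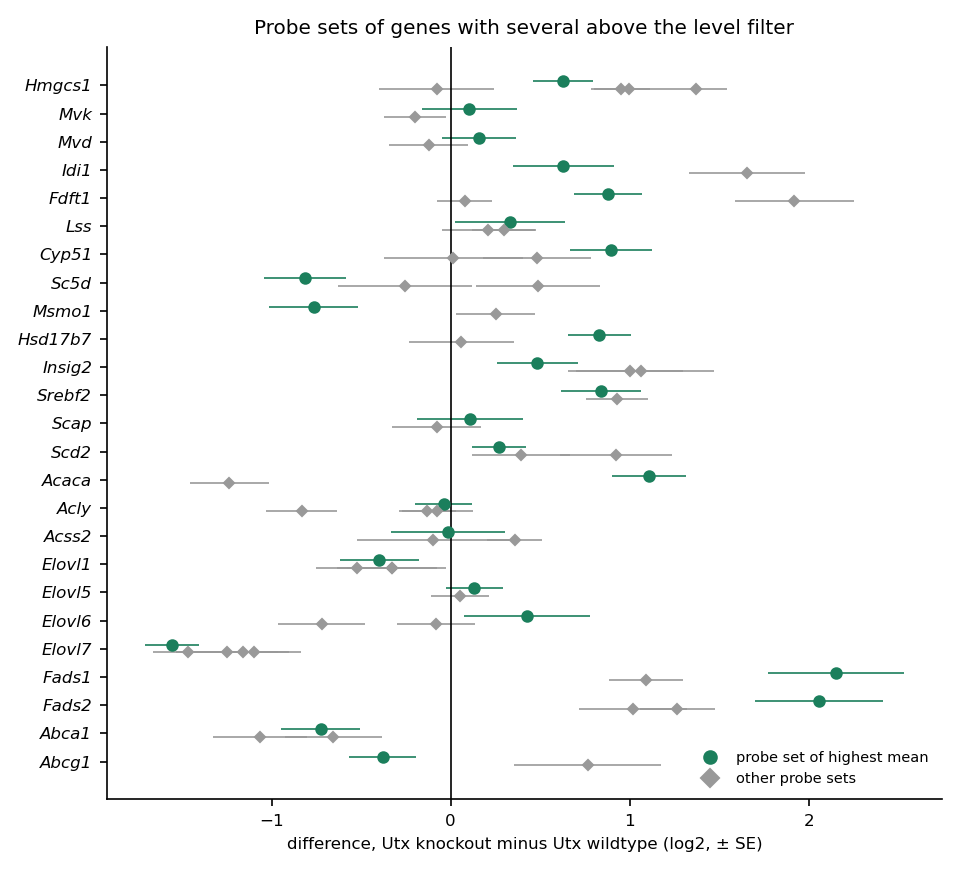
Log2 difference (± SE), Utx knockout minus Utx wildtype, of every tested probe set of the 25 members with more than 1, the brightest as green circles and the others as grey diamonds. Elovl7, Fads1 and Fads2 agree in sign over their probe sets, while those of Acaca lie on opposite sides of 0.

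Of the 25 members with more than 1 tested probe set, 15 had differences of 1 sign throughout and 10 did not. The 10 were Hmgcs1, whose dimmest probe set gave -0.08, Acaca, and the uncalled Mvk, Mvd, Sc5d, Msmo1, Scap, Acss2, Elovl6 and Abcg1.

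Both sterol exporters had negative differences, and neither passed (0 higher and 0 lower; at an unadjusted limma p under 0.05, Abca1 was lower). Abca1, which loads cholesterol on apolipoproteins, read 9.59, 9.71, 10.10 and 9.53 on KO1 to KO4, against 10.55, 10.34, 10.45, 10.24 and 10.62 on WT1 to WT5. All knockout arrays were below all wildtype arrays, KO3 being the nearest. The difference was -0.73 (SE 0.21, adjusted p = 0.0627), and the other 2 probe sets gave -1.07 and -0.65. Abca1 passed after another quantile normalization (-0.95, adjusted p = 0.0275) and as the mean of its probe sets (-0.82, adjusted p = 0.0167), and without KO3 (-0.83, adjusted p = 0.0461).

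Abcg1, which moves cholesterol to lipoprotein particles, read 11.26, 11.49, 11.37 and 11.03 on KO1 to KO4, against 11.73, 11.62, 11.55, 11.73 and 11.69 on WT1 to WT5. The groups did not overlap, and KO4 was the lowest. The difference was -0.38 (SE 0.18, adjusted p = 0.182), while the dimmer probe set gave 0.77 (SE 0.41).

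Neighbouring genes of both pathways were counted from lists of the other known members. Over all genes tested, 7.88% were called higher and 3.37% lower, and 20% and 10.7% at an unadjusted limma p under 0.05. Of 12 tested genes of isoprenoid synthesis, sterol transport and SREBP cleavage outside the 36, 0 passed (limma; 4 were higher and 0 lower at an unadjusted p under 0.05), with a median difference of 0.38, which was -0.05 in batch 1 and 0.47 in batch 2. Of 16 tested genes of fatty acid supply, elongation and activation, 2 were higher and 0 lower (2 were lower at an unadjusted p under 0.05), with a median of -0.01 (-0.20 in batch 1 and 0.19 in batch 2). The higher ones were Hacd1, a dehydratase of the elongation cycle (difference 2.71, SE 0.29, adjusted p = 0.00292), and Acsl3, an acyl-CoA synthetase (1.91, SE 0.23, adjusted p = 0.00409). Hacd1 ranged over 7.12 to 8.11 on knockout and 4.74 to 5.21 on wildtype arrays, and Acsl3 over 9.32 to 9.77 and 7.33 to 7.86. The groups of these genes did not overlap, but both genes were picked by the test on the same arrays. Both passed without any single array.

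Of 6 tested LXR receptors and targets beside the exporters, 0 were higher (1 at an unadjusted limma p under 0.05) and 2 lower, with a median of -0.43. The share called lower over all genes tested was 3.37%. Mylip, a ubiquitin ligase that removes lipoprotein receptors, had -0.99 (SE 0.26, adjusted p = 0.0467), with 8.81 to 9.68 on knockout and 9.93 to 10.39 on wildtype arrays. Smpdl3a, a phosphodiesterase, had -0.94 (SE 0.24, adjusted p = 0.0435), with 10.93 to 11.57 on knockout and 11.89 to 12.50 on wildtype arrays. Mylip lost its call without any array other than KO3, and Smpdl3a without any other than KO2 and WT2 (adjusted p 0.0537 to 0.152).

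Other gene groups differed between the genotypes on the same arrays. For comparison, 7.88% of all genes tested were called higher and 3.37% lower (20% and 10.7% at an unadjusted limma p under 0.05). Of 19 proliferation genes, 15 were higher and 0 lower in the knockout (17 and 0 at an unadjusted limma p under 0.05), with a median difference of 1.32, larger than that of the sterol branch; Hmmr had 2.92 and Mki67 1.37. The summed level of the list was 15.37 to 15.71 on the knockout and 14.47 to 14.70 on the wildtype arrays (log2). Of 10 markers of double-positive thymocytes, 7 were higher and 0 lower (10 and 0 unadjusted), with a summed level of 15.11 to 15.66 on the knockout and 14.19 to 14.69 on the wildtype arrays. Of 10 macrophage and dendritic cell markers, 3 were higher (Csf1r by 4.05) and 0 lower (9 and 0 unadjusted), with a summed level of 10.64 to 11.59 on the knockout and 8.88 to 9.55 on the wildtype arrays. Of 7 B cell markers, 2 were higher and 0 lower (4 and 0 unadjusted), summed at 10.08 to 11.11 on the knockout and 9.14 to 9.58 on the wildtype arrays. Neutrophil markers overlapped, at 7.47 to 10.81 and 7.43 to 9.73, as did those of thymic epithelium, at 8.09 to 8.21 and 7.95 to 8.28. These levels have no true 0, and 2 neutrophil and 1 epithelial marker stayed below the level filter on every array.

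T cell and iNKT genes were present in both groups. The general T cell gene Cd3e read 12.70 to 13.01 on knockout and 12.79 to 12.93 on wildtype arrays, and Zbtb16 10.46 to 10.96 and 10.69 to 11.18. Over the list of 10, 7 differences were negative and 3 positive. For comparison, 3.37% of all genes tested were called lower, and 10.7% were lower at an unadjusted limma p under 0.05. Of 10 T cell and iNKT identity genes, 0 were higher and 3 lower (1 and 4 at an unadjusted limma p under 0.05), namely Tbx21, Il2rb and Cd44 (-1.08, -1.01 and -1.23). The summed level of the list was 14.56 to 14.89 on knockout and 15.07 to 15.18 on wildtype arrays, which do not overlap. The summed double-positive level was 15.11 to 15.66 on knockout and 14.19 to 14.69 on wildtype arrays. The lists hold different genes and probe sets, so which sum is larger does not give the share of either cell type. The double-positive gene Rag1 was bright on wildtype arrays too, at 11.63 to 12.24. Labels describe the animals as matched for sex, yet Eif2s3y on the Y chromosome read 7.07 to 9.84 on knockout and 10.32 to 13.58 on wildtype arrays, and Xist 7.84 to 10.06 and 4.80 to 6.79 (adjusted p = 0.0983 and 0.035). Uty and Kdm5d, also on the Y chromosome, overlapped between the groups (adjusted p = 0.277 and 0.225), with differences of -4.36 and -4.72 in batch 1 and 0.43 and 0.22 in batch 2. Eif2s3y had -6.51 in batch 1 and -0.53 in batch 2, and Xist 5.27 and 1.54. The X-linked members Nsdhl and Ebp were not called. The interquartile range of all levels was 3.80 to 4.29 on knockout and 3.45 to 3.84 on wildtype arrays. The part of proliferation, of other cell types, of sex and of array spread in the differences of the lipid genes was not tested.

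**Figure D5:**
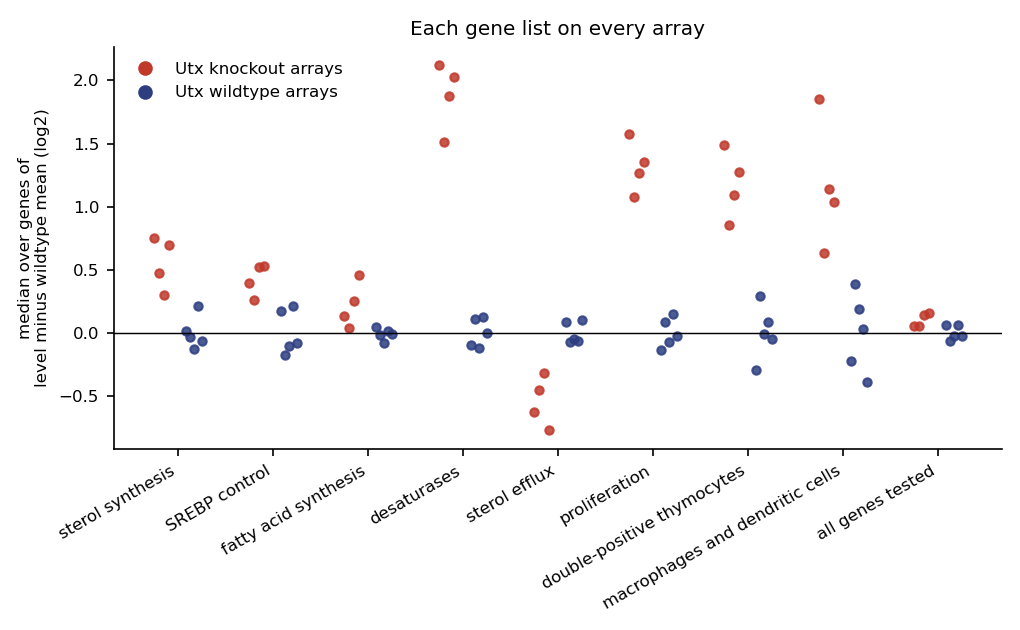
Median over the genes of each list of the level minus the wildtype mean (log2), 1 point per array, Utx knockout left and Utx wildtype right. The desaturase medians are 1.51 to 2.12 on the knockout arrays, and the proliferation and double-positive thymocyte lists are also higher on all 4 of them.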

How the data were processed

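RNA of 9 thymic iNKT samples was measured on Affymetrix-type arrays of 45101 probe sets. Per the labels' protocols, sorted cells were lysed in a phenol reagent and the RNA was amplified from picogram amounts. The deposited values are log2 levels made by the authors with RMA, per the submitters' processing notes, with no version. No source used here says whether the authors adjusted for batch. KO1 and WT1, the arrays of batch 1, deviated from their group means in opposite directions (correlation -0.92). Whether an earlier adjustment made this was not tested. All SEs, p-values and differences by batch here take the values as deposited. Amplification and probe summary can compress differences, and the number of arrays limits precision.

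Of the probe sets, 34945 had 1 gene in the array's annotation, 932 several, 9160 none here and 64 were controls. Each gene took its probe set of highest mean, and 14524 genes with a mean above the 25th percentile (4.54) were tested. limma 3.58.1 (R 4.3.3) fitted genotype and batch on all 9 arrays, two-sided, with Benjamini-Hochberg adjustment at 0.05 over all genes tested, and was tested on simulated data. Batch 3 holds wildtype arrays alone, so it informs the estimated spread and not the difference. An adjusted p or an SE in the text is from this fit; one called "over probe sets" is from the same model on all probe sets above the level filter. A 95% interval is for a single gene, from the same fit and not adjusted. SD is between arrays of a group. A summed level is the log2 of the sum of unlogged levels of a list. Between any 2 arrays of a group, the SD of the difference over all probe sets was at least 0.30. Single genes had equal values on wildtype arrays of batch 3. Fdft1 (8.09) and Srebf2 (9.25) were equal on WT3 and WT5, and Hsd17b7 (7.38) on WT3 and WT4. What such ties do to the SEs was not tested.

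Alternatives covered batch, the replicate block, filter, scaling, probe set, eBayes settings, array weights and each array left out. All members are named, with every array given for called ones and for 12 fixed by symbol. Of the neighbouring pathways the called genes are named, and of the markers those that define a cell type or move with the result. Members and lists were chosen with earlier results of these data known.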

Additional observations from a re-analysis of the deposited data

Results flagged for a closer look

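Dixon's test at the 95% value, applied to each member's 4 knockout and 5 wildtype arrays, marked 3 of 72 groups, where chance alone marks about 1 in 20. Fdps read 7.87 on KO3, and 8.80 to 8.97 on the other knockout arrays. Dhcr7 read 11.49 on KO4, and 11.12 to 11.15 on the others. Acly read 12.68 on KO4, and 12.53 to 12.55 on the others. None of these 3 genes was called.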

How the results depend on the processing

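Over 19 alternatives, the 12 called members kept direction and call in 168 of 228 values. They kept direction but lost the call in 59 and reversed in 1. Among the others, 387 of 456 did not change side or sign, 50 passed the test and 19 turned. Other filters, other eBayes settings and leaving out batch 3 arrays cannot change a difference, so the directions kept there were fixed in advance. Genes called over all genes (1634) became 6342 with no batch term, 10045 with batch as a random block (estimated correlation -0.32, and a negative correlation narrows the errors), 534 with array weights, 340 without the wildtype arrays of batch 3, and 860 to 2054 when single arrays were left out. Sterol genes called (6) became 12, 14, 0 and 0 in those fits (at an unadjusted limma p under 0.05, 9 and 10 in the last pair) and 1 to 7 when single arrays were left out. Fatty acid genes called (5) became 9 with the random block, 1 without batch 3 and 3 to 5 when single arrays were left out. The median sterol difference (0.63) was 0.40 after another quantile normalization, 0.42 with the mean of probe sets and 0.46 to 0.66 with single arrays left out, and the fatty acid median (0.20) was 0.084 with the mean of probe sets and 0.17 to 0.32 with single arrays left out.

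With the replicate number as a block in place of batch, 4290 genes and 10 sterol genes were called. Same-numbered arrays deviated from their group means with correlations of -0.92, 0.09, 0.02 and 0.15. Of the 4 knockout arrays, 1 correlated best with its own number. The first pair is also the whole of batch 1, and some of the other pairs span different batches. Number and batch are thus not separate here, and these values cannot decide whether the numbers pair the samples.

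Signs turned for Mvk (-0.044), Mvd (-0.047), Scap (-0.18) and Fasn (-0.19) after another quantile normalization, for Mvk (-0.046), Acaca (-0.064), Acss2 (0.082), Elovl6 (-0.13) and Abcg1 (0.19) with the mean of probe sets, and for Acss2 (0.0090) with array weights. With single arrays left out, Mvk ran from -0.070 to 0.37, Mvd from -0.051 to 0.30, Scap from -0.20 to 0.31, Srebf1 from -0.14 to 0.72, Acss2 from -0.63 to 0.40 and Elovl6 from -0.28 to 0.90. The cause was not tested, other than fewer arrays in the fits without them.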

Other observations

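Fatty acids that are not built into membranes can be burned in mitochondria, and of 17 tested genes of fatty acid oxidation 2 were higher and 0 lower in the knockout (limma; 4 and 0 at an unadjusted p under 0.05), with a median log2 difference of 0.14 (0.02 in batch 1 and 0.35 in batch 2). Over all genes tested 7.88% were called higher and 20% were higher at an unadjusted p under 0.05, so these counts lie near those of all genes. Eci2, an isomerase for unsaturated acyl chains, differed by 1.04 (SE 0.22, adjusted p = 0.0214) and spanned 10.78 to 11.25 on knockout and 9.80 to 10.23 on wildtype arrays. Etfdh, which passes electrons from acyl-CoA dehydrogenases to the respiratory chain, had 0.85 (SE 0.19, adjusted p = 0.03), with 9.83 to 10.21 on knockout and 8.97 to 9.36 on wildtype arrays. Neither gene's groups overlapped, but both genes were picked by the test on the same arrays. Eci2 lost its call without WT2 (0.72, adjusted p = 0.290), and Etfdh without KO3, WT2, WT3 or WT5 (adjusted p 0.0519 to 0.413).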
